A study of Drosophila melanogaster with 4 samples.

Results

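The 41 genes described here are humoral immune genes of Drosophila melanogaster, chosen by symbol from the 17475 genes of the deposited table. They comprise 34 listed symbols for antimicrobial and immune-induced peptides, recognition proteins and signal transducers, and 7 further genes whose symbol starts with PGRP-. By role they divide into 19 effector peptides, 16 recognition proteins, 5 transducers and 1 serpin. RNA came from ovaries of 7-day-old adult flies raised at 25 °C. The 2 control libraries are from w1118, a white-eyed laboratory strain that the labels also call wild type, and the 2 wh7 libraries are from flies carrying the wh7 allele of wuho in the w1118 background. wuho encodes a WD-repeat subunit of a tRNA methyltransferase, and the comparison asks which ovarian transcripts differ in its mutant.

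Flies fight microbes without antibodies, in large part by secreting short antimicrobial peptides into the hemolymph. The Toll pathway, started by fungal or Gram-positive cell wall material, acts through the NF-kappaB proteins Dif and Dorsal, and the Imd pathway, started by peptidoglycan of Gram-negative type, acts through Relish. The fat body and hemocytes are the main systemic sources, and epithelia, including those of the reproductive tract, make some peptides locally. In the ovary, several Toll pathway proteins serve another end as maternal products that pattern the dorsoventral axis of the embryo.

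Values are FPKM, which scales fragments by transcript length and library size, and their sums over genes lay between 682413 and 757801 per library. Genes listed at 0 numbered 6735 and 6555 in the controls and 4673 and 4724 in wh7. The description fields name another experiment, RNA interference against tkv, whereas source names give control or wh7 ovary. wuho was at 24.7 and 25.4 FPKM in controls against 0.832 and 0.646 FPKM in wh7 (limma adjusted p = 0.00245). tkv was at 48.0 and 49.5 FPKM in controls against 57.0 and 55.7 FPKM in wh7. Germline markers, 7 genes with vas, nos and osk among them, summed to 1680 and 1694 FPKM in the controls and 1396 and 1519 FPKM in wh7. Whether each library had its own flies is not stated, nor is the zygosity of wh7, so a p-value here reflects library-to-library spread that may be technical. In such bulk samples, a change in the share of a cell type and a change in RNA per cell cannot be told apart.

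Most of the immune genes stood higher in wh7. Both wh7 libraries lay above both controls for 31 of the 41 genes and below them for 0, whereas this held for 32.6% and 20.9% of all genes in the table. These 31 comprised 14 of the 19 effector peptides, 11 of the 16 recognition genes, the 5 transducers and nec, and the other 10 genes overlapped or were at 0 throughout. Among genes above 0 in at least 1 library, 41.1% stood higher in both wh7 libraries, against 31 of 37 immune genes. The summed FPKM of the 19 effector peptide genes was 7.30 and 8.25 in the controls and 217 and 91.9 in wh7. Recognition genes summed to 65.1 and 60.7 FPKM in the controls and 86.9 and 93.1 FPKM in wh7, and the 5 transducers to 116 and 117 against 135 and 159 FPKM.

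Of the 41 genes, 26 had at least 1 FPKM in at least 2 libraries and were tested with limma on log2(FPKM + 1). Of these, 17 rose at an adjusted p under 0.05 and 0 fell, beside 39.7% of all 8580 tested genes called in either direction, 21.2% higher and 18.4% lower. However, 11 of the 26 were under 1 FPKM in both controls and entered the test only through their wh7 values. Of those 11 genes 9 were called, and 87.0% of all 785 such genes were called as well, so nothing is read from that count. Among genes with a mean of at least 1 FPKM in the controls, 7 of 13 immune genes were called, and 31.0% of all such genes were. These counts rested on few libraries. Without control 1, 10 immune genes were called, without control 2, 12, without wh7 1, 8, and without wh7 2, 6. The count over all genes was 3403, and leaving out control 1 gave 764, control 2 gave 1565, wh7 1 gave 2363 and wh7 2 gave 1226.

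**Figure D1:**
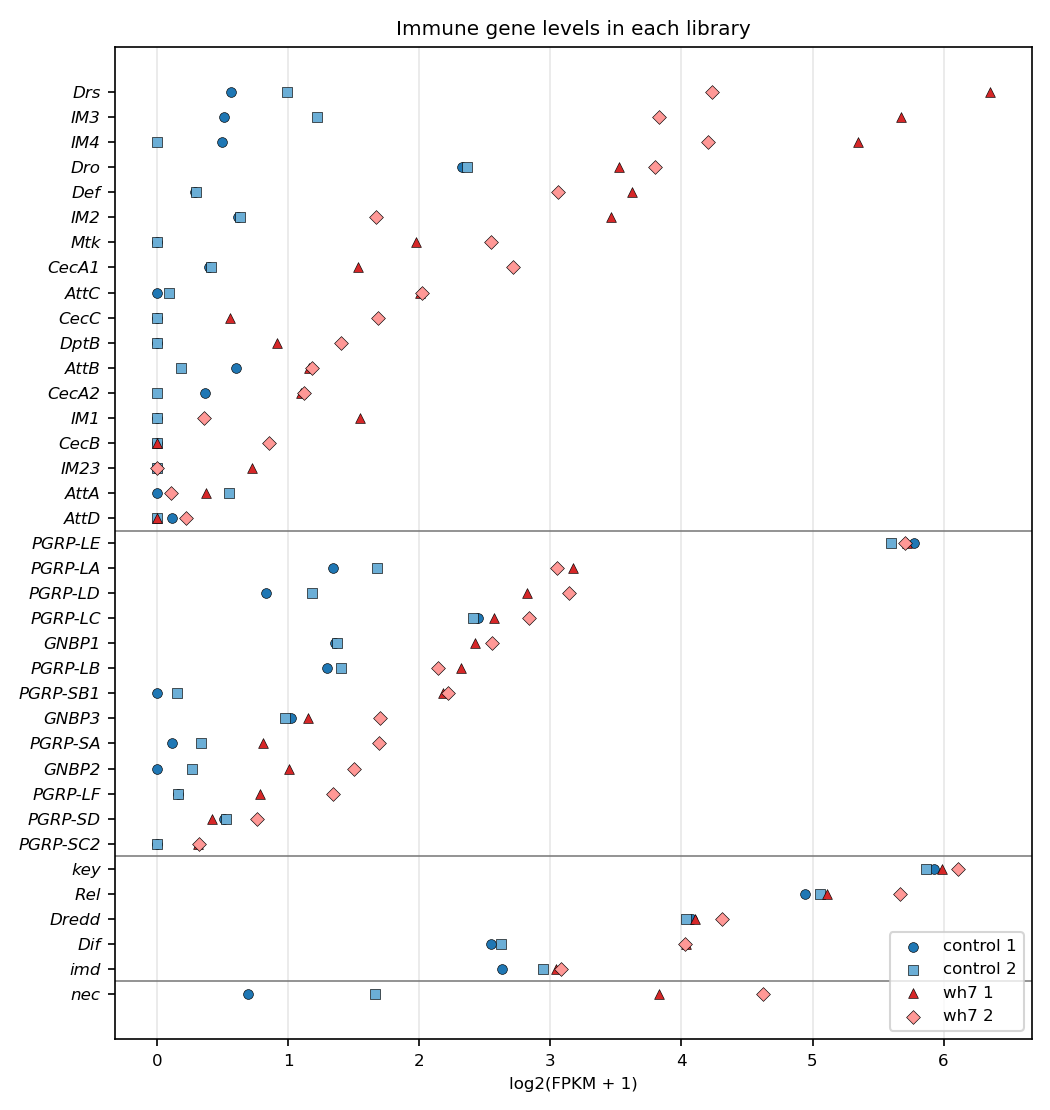
Level of each immune gene above 0 in at least 1 library, as log2(FPKM + 1), with 1 symbol per library and lines between effector peptides, recognition proteins, transducers and the serpin nec. Drs reaches 80.9 FPKM in wh7 1 and 17.8 FPKM in wh7 2 from under 1 FPKM in both controls, while PGRP-LE and key lie between 47.5 and 67.9 FPKM in all 4 libraries.

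On the log2(FPKM + 1) scale, which understates changes of low genes, the largest changes were in Drs, IM4 and IM3, which encode peptides known as targets of Toll signalling. Drs (chromosome 3L, 3369556 to 3369942, plus strand, BDGP6) encodes drosomycin, an antifungal peptide. It was at 0.477 and 0.986 FPKM in controls against 80.9 and 17.8 FPKM in wh7, a change of 4.52 ± 0.720 (SE) on the log2(FPKM + 1) scale (limma adjusted p = 0.0140; call lost without control 1, adjusted p 0.00147 to 0.0620 over the alternatives). Both wh7 libraries were far above the controls, and they also differed widely from each other. IM4, now named Dso1 or daisho (2R, 20868496 to 20869321, minus strand), encodes a short peptide with antifungal activity. It was at 0.409 and 0 FPKM in controls against 39.6 and 17.4 FPKM in wh7 (log2 change 4.52 ± 0.433, limma adjusted p = 0.00592). Drs and IM4 were under 1 FPKM in both controls and entered the test only through wh7. Of all such genes 87.0% were called, so nothing is read from the calls of Drs and IM4.

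IM1, IM2, IM3 and IM23 encode Bomanins, short secreted peptides needed for Toll-dependent survival of infection, and lie side by side on 2R between 18382704 and 18388734. IM3 rose from 0.429 and 1.33 FPKM to 50.1 and 13.2 FPKM (log2 change 3.88 ± 0.662, limma adjusted p = 0.0160; call lost without control 1, adjusted p 0.00112 to 0.0698 over the alternatives). IM2 was at 0.534 and 0.552 FPKM in controls against 10.0 and 2.19 FPKM in wh7, and missed the threshold (limma adjusted p = 0.0607). It passed with a pseudocount of 0.1 FPKM (0.0394) and with crossed replicate numbers as a block (0.0209, in a range of 0.0209 to 0.346 over the alternatives). IM1 was listed at 0 in both controls and stood at 1.92 and 0.283 FPKM in wh7, too low to be tested. IM23 was above 0 only in wh7 1, at 0.657 FPKM. Thus these 4 Bomanin genes, which are not the whole family, were highest in wh7 1, but their levels there differed widely. IM10, a gene of another immune-induced peptide, was listed at 0 in every library, and its retired identifier has no entry in the annotation used.

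Among other peptides, which act mainly on bacteria, Def, Mtk and Dro rose. Def (2R, 10054178 to 10054576, minus strand) encodes defensin, which acts on Gram-positive bacteria. It was at 0.224 and 0.232 FPKM in controls against 11.3 and 7.34 FPKM in wh7 (log2 change 3.04 ± 0.245, limma adjusted p = 0.00516). Mtk (2R, 15408846 to 15409113, plus strand), which encodes the antifungal and antibacterial metchnikowin, was listed at 0 in both controls and at 2.93 and 4.85 FPKM in wh7 (log2 change 2.26 ± 0.257, limma adjusted p = 0.00764). Def and Mtk were under 1 FPKM in both controls and entered the test only through wh7, so their groups could not overlap. Dro, which encodes drosocin, a proline-rich peptide against Gram-negative bacteria, had the highest level of all 19 effector genes in the controls. It rose 2.87-fold from 4.02 and 4.15 to 10.5 and 12.9 FPKM (log2 change 1.32 ± 0.164, limma adjusted p = 0.00869). Dro alone made up 55.1% and 50.3% of the summed effector FPKM in the controls but 4.85% and 14.1% in wh7, where Drs, IM3 and IM4 together held 78.7% and 52.6%.

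The 4 attacin genes, which encode glycine-rich proteins against Gram-negative bacteria, did not move together. AttC rose from 0 and 0.0655 FPKM to 3.01 and 3.05 FPKM (log2 change 1.96 ± 0.181, limma adjusted p = 0.00566). Being under 1 FPKM in both controls, it entered the test only through wh7, and nothing is read from its call. AttB stood at 0.522 and 0.135 FPKM in controls against 1.23 and 1.27 FPKM in wh7 and missed the threshold (limma adjusted p = 0.0533; passed at 0.0372 without the mean-variance trend; direction reversed to -0.28 after quantile normalization; adjusted p 0.0372 to 0.432 over the alternatives). Its neighbour AttA was at 0 and 0.466 FPKM in controls against 0.297 and 0.0769 FPKM in wh7, and its groups overlapped. AttA and AttB (2R, 14747362 to 14748215 and 14749223 to 14750165) are close copies, so the division of reads between them is uncertain. AttD on 3R was at 0.0818 and 0 FPKM in controls against 0 and 0.168 FPKM in wh7.

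Cecropins, helical peptides that disrupt bacterial membranes, lie in a cluster on 3R between 30210874 and 30216938. CecA1 rose from 0.319 and 0.330 FPKM to 1.90 and 5.56 FPKM (log2 change 1.72 ± 0.423, limma adjusted p = 0.0349). CecA2 was at 0.287 and 0 FPKM in controls against 1.14 and 1.18 FPKM in wh7 (log2 change 0.93 ± 0.221, limma adjusted p = 0.0324). CecA1 and CecA2 were under 1 FPKM in both controls and entered the test only through wh7, so nothing is read from their calls. Both calls were fragile. The call of CecA1 ended when control 1 or control 2 was left out, when no filter was used or when quantiles were equalized (adjusted p 0.0160 to 0.256 over the alternatives). The call of CecA2 ended when control 1 or control 2 was left out and with a replicate block, and its direction reversed to -0.06 after quantile normalization (adjusted p 0.0207 to 0.873 over the alternatives). CecC was listed at 0 in controls against 0.474 and 2.21 FPKM in wh7, and CecB was above 0 only in wh7 2, at 0.811 FPKM. CecA1 and CecA2 are near-identical copies, so their separate values are uncertain. DptB, which encodes a diptericin, another Imd-dependent peptide, was listed at 0 in controls against 0.884 and 1.65 FPKM in wh7.

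**Figure D2:**
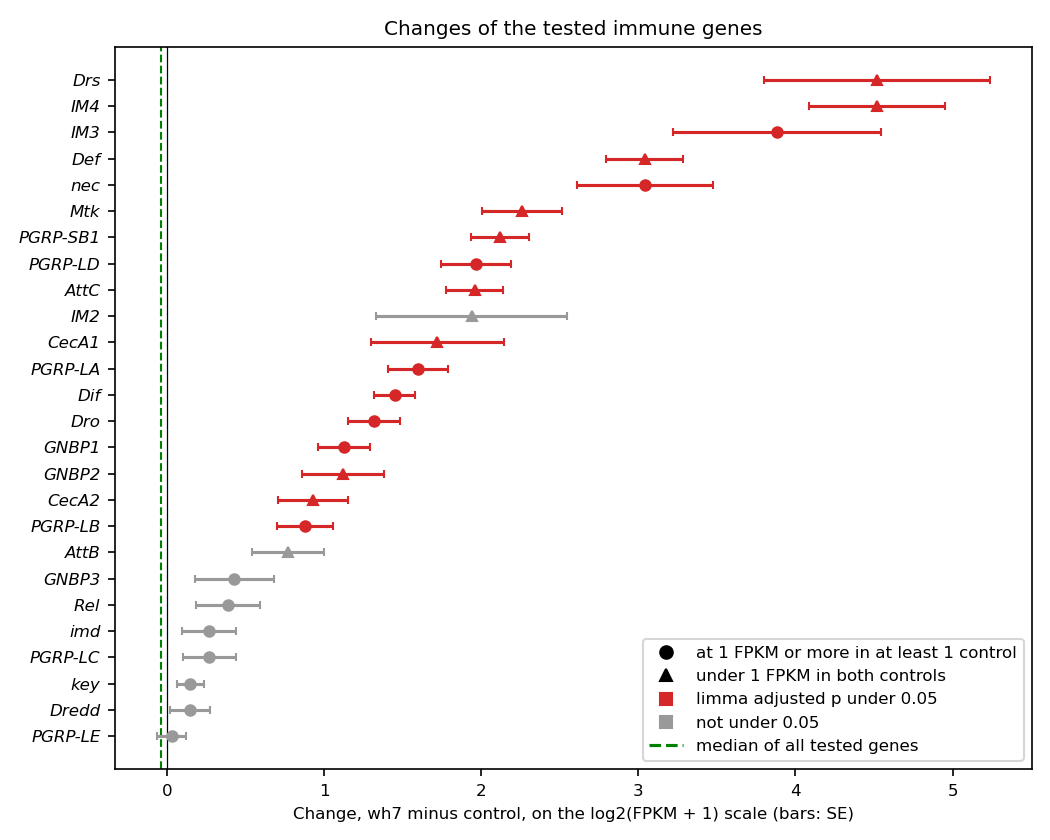
Change of each of the 26 tested immune genes, wh7 minus control on the log2(FPKM + 1) scale, with bars for the SE from limma and a dashed line at the median of all tested genes, -0.04. Red marks the 17 genes with an adjusted p under 0.05, and triangles mark the 11 genes under 1 FPKM in both controls.

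The reads behind these low values could be inferred in part. Within a gene, values of low genes fall on whole multiples of what 1 read is worth, after a scaling of 1 read in control 2 (3.46% more than in control 1), wh7 1 (1.03% less) and wh7 2 (2.42% more). For 10 of the 29 immune genes above 0 in at least 3 libraries, the values lay within 0.03 of such multiples up to 60, with the lowest value taken as 1 to 5 reads. The true read numbers may be a common multiple of those given. For CecA1 the smallest multiples were 1 and 1 in the controls and 6 and 17 in wh7. For Def they were 1 and 1 against 51 and 32, and for IM2 1 and 1 against 19 and 4. AttC gave 0 and 1 against 48 and 47, whereas AttA gave 0 and 6 against 4 and 1. For CecA1, Def, IM2 and AttC the control values were thus at 0 or at the lowest step, and for AttA the steps of both genotypes overlapped.

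The 2 wh7 libraries differed in which effectors were high. Of 34 immune genes above 0 in both, 7 were at least 1.5-fold higher in wh7 1, 10 were at least 1.5-fold higher in wh7 2, and 17 lay within 1.5-fold. Among tested genes above 0 in both wh7 libraries, 10 of the 26 immune genes and 10.6% of all genes differed by at least 1.5-fold between them. The 7 genes higher in wh7 1 were Drs (4.54-fold), IM1 (6.76-fold), IM2 (4.59-fold), IM3 (3.80-fold), IM4 (2.28-fold), Def (1.54-fold) and AttA (3.87-fold). The effectors higher in wh7 2 were CecC (4.66-fold), CecA1 (2.93-fold), DptB (1.86-fold) and Mtk (1.66-fold). With 1 library on each side, this difference has no replicate check. The share over all genes is not matched for level, and some of these differences rest on low values. AttA was at 0.297 and 0.0769 FPKM in wh7, IM1 at 1.92 and 0.283 FPKM and CecC at 0.474 and 2.21 FPKM. By contrast, Drs, IM3 and IM4 were at 13.2 FPKM or more in both wh7 libraries. The genes higher in wh7 2 also included nec and the recognition genes PGRP-SA, PGRP-LF, PGRP-SD, GNBP2 and GNBP3, at 1.78-fold to 2.98-fold. AttB, AttC, CecA2 and PGRP-SB1 differed by 1.01-fold to 1.03-fold.

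**Figure D3:**
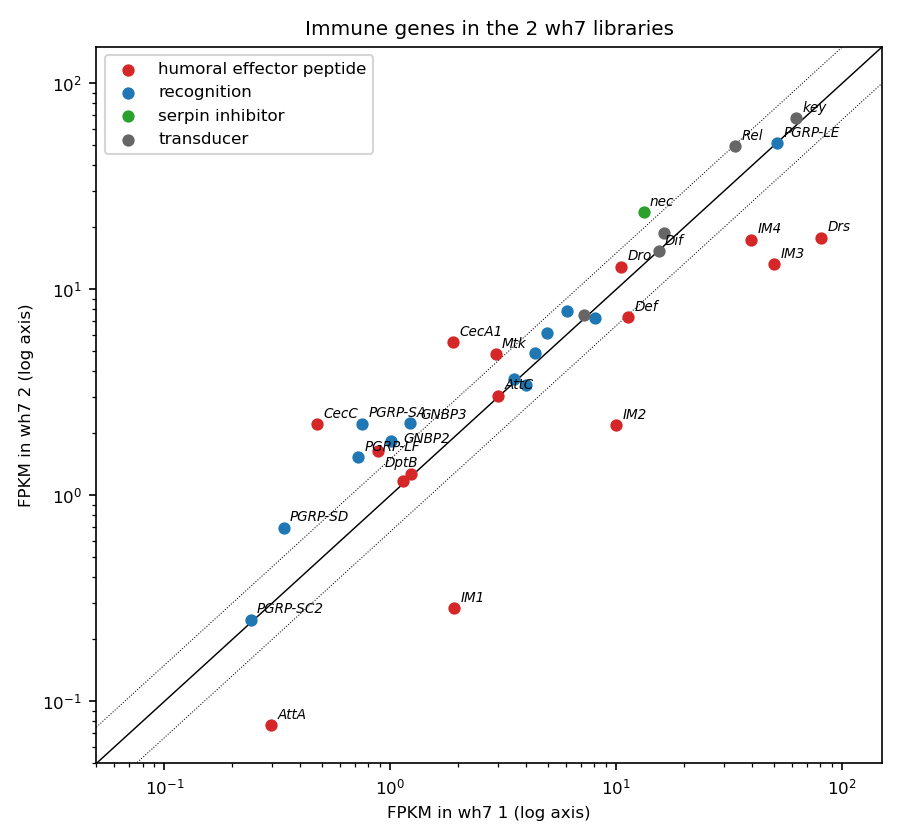
FPKM of each immune gene above 0 in both wh7 libraries, wh7 1 on the horizontal and wh7 2 on the vertical log axis, with a solid line of equal values and dotted lines at 1.5-fold. Drs, IM1, IM2, IM3, IM4, Def and AttA lie below the lower dotted line, and 10 genes lie above the upper one.

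Recognition proteins come in several families, of which the peptidoglycan recognition proteins (PGRPs) are the largest. PGRP-LE, an intracellular and extracellular sensor of the Imd pathway, was the most highly expressed of the 13 PGRP genes and showed almost equal means, at 53.7 and 47.5 FPKM in the controls and 51.7 and 51.1 FPKM in wh7 (log2 change 0.03 ± 0.0939, limma adjusted p = 0.845; direction reversed to -0.06 without control 2, adjusted p 0.344 to 0.927 over the alternatives). PGRP-LC, the main membrane receptor of the Imd pathway, was at 4.47 and 4.33 FPKM in controls against 4.95 and 6.14 FPKM in wh7 (limma adjusted p = 0.256; direction reversed to -0.60 after quantile normalization, adjusted p 0.0640 to 0.725 over the alternatives). Both sensors that start Imd signalling thus showed no call. For PGRP-LE the groups overlapped.

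PGRP-LA, PGRP-LC and PGRP-LF follow each other on the plus strand of 3L between 9334332 and 9351489. PGRP-LA, a PGRP implicated in Imd signalling in barrier epithelia, rose 4.09-fold from 1.54 and 2.20 to 8.01 and 7.29 FPKM (log2 change 1.60 ± 0.191, limma adjusted p = 0.00802). That call was lost after quantile normalization (0.0522, in a range of 0.00594 to 0.0522 over the alternatives). PGRP-LF, a membrane protein that inhibits PGRP-LC, was at 0.115 and 0.119 FPKM in controls against 0.720 and 1.53 FPKM in wh7, under the limit for testing. Its smallest whole-read multiples were 3 and 3 in the controls and 19 and 39 in wh7.

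Catalytic PGRPs cut peptidoglycan and thereby dampen the Imd response. PGRP-LB, an amidase, rose 2.38-fold from 1.46 and 1.64 to 3.98 and 3.42 FPKM (log2 change 0.88 ± 0.176, limma adjusted p = 0.0222). This call was lost without any 1 library and with no filter, and the direction reversed to -0.21 after quantile normalization (adjusted p 0.0118 to 0.447 over the alternatives). PGRP-SB1, a further amidase with bactericidal activity, rose from 0 and 0.109 FPKM to 3.53 and 3.65 FPKM (log2 change 2.12 ± 0.183, limma adjusted p = 0.00545). PGRP-SB1 was under 1 FPKM in both controls and entered the test only through wh7, so nothing is read from its call. Its neighbour on 3L, PGRP-SB2, was listed at 0 in every library, as were the amidase genes PGRP-SC1a and PGRP-SC1b, which are active in the gut. PGRP-SC2 was listed at 0 in controls against 0.241 and 0.249 FPKM in wh7.

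PGRP-SA, which circulates and senses Gram-positive bacteria for the Toll pathway, was at 0.0843 and 0.262 FPKM in controls against 0.751 and 2.23 FPKM in wh7, too low to be tested. PGRP-SD, a secreted co-receptor, was at 0.425 and 0.440 FPKM in controls against 0.337 and 0.697 FPKM in wh7, with overlapping groups. GNBP1, the partner of PGRP-SA, rose 2.94-fold from 1.56 and 1.59 to 4.36 and 4.89 FPKM (log2 change 1.13 ± 0.166, limma adjusted p = 0.0121). Leaving out control 1, control 2 or wh7 2, or normalizing by quantiles, ended the call (adjusted p 0.00632 to 0.866 over the alternatives). GNBP2, next to GNBP1 on 3L (18673474 to 18677876 for the pair), was at 0 and 0.201 FPKM in controls against 1.01 and 1.83 FPKM in wh7 (limma adjusted p = 0.0305). GNBP2 was under 1 FPKM in both controls and entered the test only through wh7, so nothing is read from its call. Leaving out control 1 or control 2, or normalizing by quantiles, ended this call too (adjusted p 0.0270 to 0.741 over the alternatives). GNBP3, the sensor of fungal glucans, was at 1.03 and 0.963 FPKM in controls against 1.22 and 2.25 FPKM in wh7 (limma adjusted p = 0.229), with the direction reversed to -0.67 after quantile normalization (adjusted p 0.0872 to 0.817 over the alternatives). PGRP-LD rose from 0.782 and 1.27 FPKM to 6.06 and 7.83 FPKM (log2 change 1.97 ± 0.223, limma adjusted p = 0.00753). Most of its exon bases are shared with another gene on the same strand, so this value is uncertain.

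The 4 transducers of the Imd pathway showed small differences and no call. imd, which encodes the death-domain adaptor, was at 5.21 and 6.70 FPKM in controls against 7.23 and 7.48 FPKM in wh7 (limma adjusted p = 0.257; direction reversed to -0.42 after quantile normalization, adjusted p 0.0980 to 0.713 over the alternatives). Dredd, the caspase that cleaves Imd and Relish, was at 15.9 and 15.4 FPKM in controls against 16.2 and 18.8 FPKM in wh7 (limma adjusted p = 0.391). key, a subunit of the IkappaB kinase complex, was at 59.8 and 57.2 FPKM in controls against 62.5 and 67.9 FPKM in wh7 (limma adjusted p = 0.204). Rel, the NF-kappaB protein of the pathway, was at 29.8 and 32.2 FPKM in controls against 33.6 and 49.7 FPKM in wh7 (limma adjusted p = 0.182). Their log2 changes were 0.27 ± 0.172 for imd, 0.15 ± 0.127 for Dredd, 0.15 ± 0.0841 for key and 0.39 ± 0.202 for Rel (SE). Without wh7 1, Rel passed it with a log2 change of 0.67 (adjusted p = 0.0172, in a range of 0.0172 to 0.564 over the alternatives).

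Dif, the NF-kappaB protein through which Toll induces peptides in adults, rose 3.07-fold from 4.85 and 5.18 to 15.4 and 15.3 FPKM (log2 change 1.45 ± 0.132, limma adjusted p = 0.00556). Its wh7 libraries were nearly equal, and its call held under each of the 13 alternatives, at adjusted p 0.00405 to 0.0273. nec (2R, 7156477 to 7158241, minus strand) encodes Necrotic, a serpin that restrains the protease cascade upstream of Toll. It rose 13.2-fold from 0.617 and 2.17 to 13.2 and 23.6 FPKM (log2 change 3.04 ± 0.433, limma adjusted p = 0.0112), also with its call held under each alternative. An activator and an inhibitor of Toll signalling were thus higher in the same libraries.

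Several of these genes lie inside or across other genes, and the sources used here do not say whether reads were counted by strand. Def lies inside magu on the opposite strand without shared exon bases, and magu was at 37.9 and 39.8 FPKM in controls against 42.9 and 35.1 FPKM in wh7 (limma adjusted p = 0.998). nec lies inside pk on the opposite strand, and pk was at 0.896 and 1.04 FPKM in controls against 5.52 and 6.33 FPKM in wh7. Mtk lies inside CG43729 on the same strand, which was at 0.519 and 0.271 FPKM in controls against 3.22 and 9.96 FPKM in wh7. Rel lies inside Nmdmc on the same strand, which was at 13.1 and 18.2 FPKM in controls against 24.7 and 41.4 FPKM in wh7 (limma adjusted p = 0.0521). PGRP-LB lies inside CG17230 on the opposite strand, at 15.7 and 13.7 FPKM in controls against 14.1 and 11.0 FPKM in wh7, and PGRP-SD inside CG32373 on the same strand, at 6.84 and 5.44 FPKM against 3.78 and 6.61 FPKM. PGRP-LF shares 602 exon bases with UGP on the opposite strand, which fell from 80.7 and 78.8 to 43.1 and 40.1 FPKM (limma adjusted p = 0.00545). PGRP-LD shares 3563 of its 3957 exon bases with Pmi on the same strand, which was at 54.7 and 52.2 FPKM in controls against 37.8 and 34.1 FPKM in wh7, and 1323 with Cralbp on the other strand, which was at 0.347 and 0.684 FPKM against 2.87 and 4.97 FPKM. The value of PGRP-LD is therefore uncertain. Of the 7 genes that an immune gene lies inside, 3 stood higher in both wh7 libraries (pk, CG43729 and Nmdmc), 1 lower (Pmi) and 3 overlapped between genotypes. Over all 19 overlapping partners these counts were 6, 5 and 8, with GstE9, which shares 40 exon bases with imd on the opposite strand, among the 6 (2.94 and 2.96 FPKM in controls, 15.1 and 16.5 FPKM in wh7). Of all genes in the table, 32.6% stood higher in both wh7 libraries and 20.9% lower. The part of these overlapping genes in the results was not tested.

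Further genes of the same pathways were taken from lists. Of 17 tested core genes of the Toll pathway 2 rose and 5 fell, beside 21.2% higher and 18.4% lower over all tested genes, and the median log2 change was -0.24, against -0.04 over all tested genes. Tl, the Toll receptor gene, fell from 117 and 108 to 65.0 and 66.3 FPKM (limma adjusted p = 0.00688), and pll, which encodes the kinase Pelle, from 34.1 and 30.7 to 19.2 and 19.4 FPKM (limma adjusted p = 0.0120; call lost without control 1, 0.0767). spz, cact and dl, which encode the ligand, the inhibitor and the maternal NF-kappaB protein, were the other 3 that fell. Among the proteases, SPE, which activates the Toll ligand, rose from 0.0415 and 0.215 to 1.03 and 1.74 FPKM (limma adjusted p = 0.0298), and Hayan from 0.423 and 0.604 to 1.76 and 1.30 FPKM (limma adjusted p = 0.0471). SPE and Hayan, the 2 that rose, were under 1 FPKM in both controls and entered the test only through wh7. Of all such genes 87.0% were called, so nothing is read from these 2 calls. Both of these calls were lost without control 1 (0.181 and 0.263) and without control 2 (0.104 and 0.160). That of Hayan was also lost with a replicate block (0.0763), with the numbers crossed (0.0829) and with no filter (0.0532). After quantile normalization SPE had a log2 change of 0.00, and Hayan reversed to -0.33. The receptor gene, its kinase, the inhibitor and dl were thus lower in the same libraries in which Dif was higher.

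Of 19 tested further Imd pathway genes 3 rose and 2 fell, with a median log2 change of -0.11, beside 39.7% of all tested genes called in either direction. bsk, the Jun kinase gene, rose from 18.1 and 17.4 to 32.9 and 33.1 FPKM (limma adjusted p = 0.00753), and dnr1, which encodes an inhibitor of Dredd, from 4.32 and 4.92 to 12.9 and 12.4 FPKM (limma adjusted p = 0.00753). Tab2 fell from 79.2 and 71.4 to 51.4 and 45.1 FPKM (limma adjusted p = 0.0154), and the kinase gene ird5 from 40.7 and 32.5 to 24.2 and 23.0 FPKM (limma adjusted p = 0.0300). Both falls lost their call without control 1 (0.0928 for Tab2 and 0.134 for ird5), and ird5 also did without wh7 2 (0.0777) and with no filter (0.0576). CYLD, which encodes a deubiquitinase, was the last of the 3 that rose, from 13.8 and 15.4 to 21.1 and 23.4 FPKM (limma adjusted p = 0.0268). The other 14 were not called in either direction. Among them pirk had the largest change of the 19, from 0.281 and 0.832 to 1.74 and 4.73 FPKM (log2 change 1.37 ± 0.423, limma adjusted p = 0.0584). It was under 1 FPKM in both controls and entered the test only through wh7. Its q was 0.00531 in the authors' deposited table.

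Other effector genes were mostly low. Of 31 listed, 14 stood higher in both wh7 libraries and 0 lower, beside 32.6% and 20.9% of all genes in the table. Of the 31, 7 were at 0 throughout. The 8 tested entered the test only through wh7, so nothing is read from their all being called higher (87.0% of all such genes were called). CG16712, also known as IM33, was at 0 and 0.579 FPKM in controls against 25.8 and 15.5 FPKM in wh7 (limma adjusted p = 0.00545). Tsf1, which encodes an iron-binding transferrin, was at 0.0732 and 0.151 FPKM in controls against 5.37 and 15.1 FPKM in wh7 (limma adjusted p = 0.0119; call lost without control 1, 0.0540). The Bomanin gene CG5778 was at 0 and 0.607 FPKM in controls against 8.12 and 5.10 FPKM in wh7, and CG43236, named Mtkl for its likeness to Mtk, was listed at 0 in controls against 2.51 and 6.06 FPKM in wh7 (limma adjusted p = 0.0143; call lost without control 1, 0.0696). Of these 4 genes, CG16712 and CG5778 were higher in wh7 1, and Tsf1 and CG43236 in wh7 2.

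Melanization genes rose in 6 of 10 tested and fell in 1, beside 21.2% higher and 18.4% lower over all tested genes. PPO1 and PPO2, the prophenoloxidases of crystal cells, were at 0.0207 to 0.0440 FPKM in controls, against 2.42 and 7.88 FPKM (PPO1) and 2.29 and 9.06 FPKM (PPO2) in wh7 (limma adjusted p = 0.0222 and 0.0284). Both calls were lost without control 1, without control 2, with no filter and after quantile normalization. The serpin genes Spn77Ba (0.244 and 0.317 to 4.31 and 5.35 FPKM) and Spn28Dc (0.472 and 0.575 to 3.05 and 3.98 FPKM), inhibitors of melanization, also rose (limma adjusted p = 0.00545 and 0.00896), the call of Spn28Dc being lost without control 1 (0.0626) and after quantile normalization (0.112). PPO3 was the gene that fell, from 3.49 and 3.72 to 0.949 and 1.07 FPKM (limma adjusted p = 0.0113). Of the 6 that rose, 5 were under 1 FPKM in both controls, and of all tested genes that low in the controls 87.0% were called. Of 10 tested recognition and uptake genes 8 rose and 0 fell, 4 of the 8 from under 1 FPKM in both controls; 21.2% of all tested genes rose. They were led by the scavenger receptor gene crq (14.3 and 6.71 to 104 and 98.0 FPKM, limma adjusted p = 0.00679) and the thioester protein gene Tep4 (3.87 and 6.82 to 34.9 and 74.4 FPKM, limma adjusted p = 0.0108). On the log2(FPKM + 1) scale, NimB2 and Tep2 were the next 2 by size of change. NimB2 was at 0.107 and 0.334 FPKM against 2.80 and 11.2 FPKM, and Tep2 at 2.69 and 1.99 FPKM against 11.2 and 13.8 FPKM. The call of NimB2 was lost without control 1, without control 2, with no filter and after quantile normalization. Of 12 Toll family receptor and ligand genes only Tollo and 18w were expressed highly enough to be tested, and both rose. Tollo went from 4.49 and 4.69 to 13.6 and 11.1 FPKM (limma adjusted p = 0.00917; call lost after quantile normalization, 0.0590). 18w went from 2.94 and 6.60 to 13.8 and 18.6 FPKM (limma adjusted p = 0.0272; call lost without control 1, 0.0626, without wh7 2, 0.0707, and with no filter, 0.0667).

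**Figure D4:**
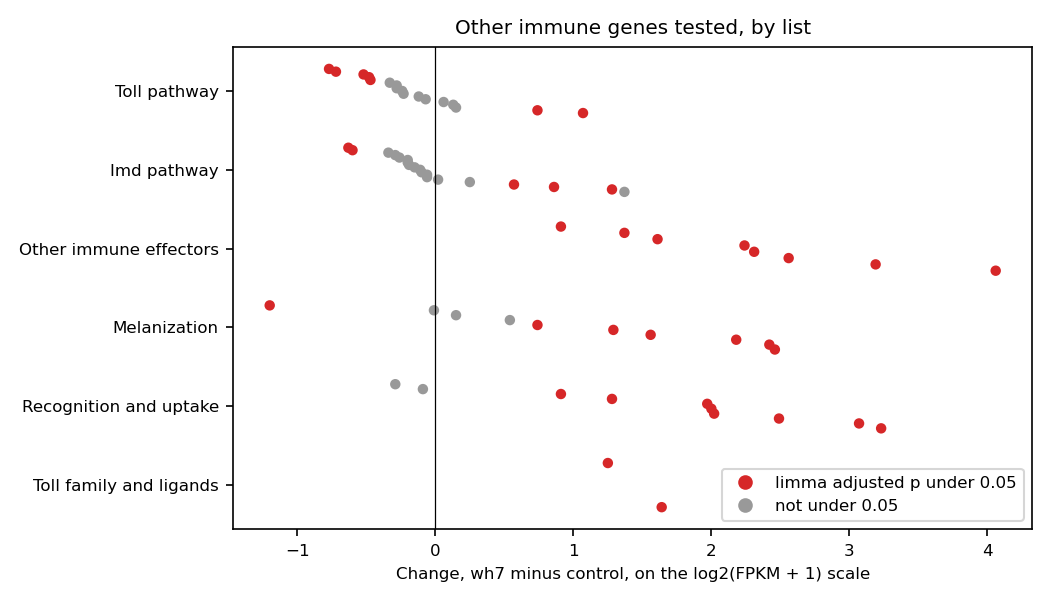
Change of each tested gene of 6 further immune gene lists, wh7 minus control on the log2(FPKM + 1) scale, 1 point per gene, red where the limma adjusted p was under 0.05. Most Toll and Imd pathway genes lie near 0, with 5 and 2 falls called, while the 8 tested effector genes all lie above 0.

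Markers of cell types that could contribute immune transcripts also summed higher in wh7 than in controls. Hemocyte markers, 13 genes, summed to 102 and 145 FPKM in the controls and to 453 and 616 FPKM in wh7, with 12 of 13 higher in both wh7 libraries, beside 32.6% of all genes. Of the defining hemocyte genes, Hml was at 0.0994 and 0.0673 FPKM in controls against 2.90 and 2.09 FPKM in wh7, and Pxn at 0.796 and 1.60 FPKM against 31.0 and 75.6 FPKM. NimC1 was listed at 0 in controls against 0.669 and 0.964 FPKM in wh7, and He at 0 against 0.464 and 0.384 FPKM, while lz was at or under 0.194 FPKM in every library. The groups of srp overlapped, at 9.65 and 32.5 FPKM in controls against 29.5 and 23.5 FPKM in wh7. Fat body markers, 12 genes, summed to 7.77 and 9.68 FPKM in the controls and to 65.4 and 59.8 FPKM in wh7, with 10 of 12 higher. Lsp1alpha, Lsp1beta, Lsp1gamma, Fbp1, Fbp2, Apoltp and to were under 1 FPKM throughout, with Lsp1beta at 0 and 0.0190 FPKM in controls against 0.964 and 0.489 FPKM in wh7 and Apoltp at 0.0202 and 0.0313 FPKM against 0.773 and 0.993 FPKM. Lsp2, another larval serum protein gene, was at 0.0210 and 0.0652 FPKM in controls against 0.749 and 4.99 FPKM in wh7. Spermatheca and reproductive tract markers summed to 6.88 and 6.60 FPKM in the controls and 31.7 and 49.9 FPKM in wh7, with 5 of 6 higher. Muscle markers summed to 85.5 and 107 FPKM in the controls and to 1120 and 2060 FPKM in wh7, with 10 of 10 higher. Gut markers summed to 0.0866 and 0.516 FPKM in the controls and 2.80 and 5.89 FPKM in wh7, and 9 of the 10 were under 1 FPKM in all libraries. Malpighian tubule markers, 3 genes, summed to 2.40 and 2.64 FPKM in the controls and 11.7 and 8.93 FPKM in wh7. Follicle cell markers, 9 genes, summed to 951 and 2467 FPKM in the controls and 2933 and 3642 FPKM in wh7, with 6 of 9 higher. Yp1, Yp2 and Yp3, the most abundant of them, were not called. The groups of Yp3, Cad74A and slbo overlapped.

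The peptide sum and several marker sums differed between wh7 1 and wh7 2. Drs, IM3 and IM4 made up 78.7% of the peptide sum in wh7 1 and 52.6% in wh7 2. Of effectors above 0 in wh7 1 and wh7 2 and at least 1.5-fold apart, Drs, IM1, IM2, IM3, IM4, Def and AttA were higher in wh7 1. CecC, CecA1, DptB and Mtk were higher in wh7 2. The 19 effector genes summed higher in wh7 1, by 217 against 91.9 FPKM, as did the Malpighian tubule markers. Hemocyte, muscle, reproductive tract, follicle cell and gut sums were higher in wh7 2. By gene, 9 of the 13 hemocyte markers were higher in wh7 2, and 4 (Hml, crq, He and srp) were higher in wh7 1. The fat body sum was similar in both, although Obp99a, the most abundant marker of that list, was at 50.6 and 25.8 FPKM and Tsf1 at 5.37 and 15.1 FPKM. The part of these cell types in the immune gene results was not tested.

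**Figure D5:**
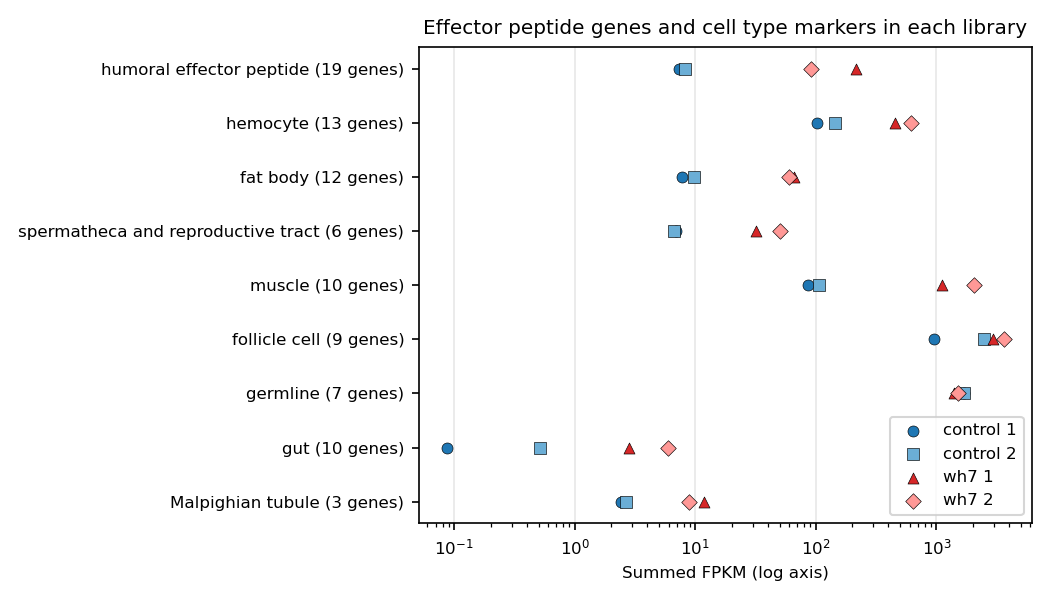
Summed FPKM (log axis) of the effector peptide genes and of each cell type marker list, with 1 symbol per library. Effector peptides are highest in wh7 1, at 217 FPKM, and the muscle and hemocyte sums are highest in wh7 2, at 2060 and 616 FPKM.

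In the authors' deposited table, 6 of the 41 genes were marked significant, against 9.50% of all genes. They were PGRP-LA, GNBP1, nec, DptB, CecC and IM1, with q values of 0.00640, 0.0137, 0.00694, 8.70e-04, 0.00415 and 0.0234 in the authors' deposited table. The last 3 were listed at 0 in both controls and were too low to be tested here. Drs and Dif, both called here, had a q of 0.0621 and 0.0511 in the authors' deposited table, and Def one of 0.796.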

How the data were processed

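Each library has a deposited FPKM column for 17475 genes, with 0.0001 written in place of 0. Per the file headers, the table also holds genotype FPKM, their ratio, the log2 of that ratio, p-values and q-values; of the latter only q-values and the authors' significance mark were used. Per the submitters' processing notes, which give no order, the tools were bcl2fastq 2.0 and Bowtie 0.12.2, and mm8 and BDGP6 are listed as builds; the program that computed FPKM is not known. Deposited starts count from 0. After 1 was added, 69.9% matched the BDGP6 annotation used here, in which 98.3% of identifiers were found; Drs, whose identifier was retired, was found by symbol. Some loci are merged from overlapping genes. All 4 per-library columns were used. No read counts are given, so depth per value is known only where whole-read steps could be inferred.

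For genes reaching 1 FPKM in 2 or more libraries, limma (3.58.1, R 4.3.3) was run on log2(FPKM + 1), using its trend option. Adjusted p-values are Benjamini-Hochberg values over all 8580 genes, with a threshold of 0.05. The log2 changes understate changes of low genes, and fold changes are ratios of mean FPKM. An exact two-sided permutation test of 2 against 2 libraries cannot go below p = 0.333, so calls rest on limma's moderated spread (prior degrees of freedom 2.69). The fit was tested on simulated data.

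The members and lists were chosen with earlier results of these data known. Every member was accounted for, those with a mean of at least 1 FPKM in either genotype by library. Of each list, up to 4 called genes with the largest change were named. Named after their values were seen were spz, cact, dl, CYLD, pirk, PPO3, Obp99a, other single markers and the overlapping genes. Alternatives were another pseudocount, filter, scaling or trend, a replicate block and leaving out each library.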

Additional observations from a re-analysis of the deposited data

How the results depend on the processing

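The 17 calls among immune genes became 9 with a filter of 5 FPKM (14 tested), 7 with a mean of at least 1 FPKM in the controls (13 tested), 11 after quantile normalization, and 6 to 12 when a library was left out. Under the same alternatives, the 36 calls among pathway list genes became 20, 18, 22 and 11 to 24. The 3403 calls over all genes became 764 to 2363 without a library. The first 2 of these filters and the fits without a wh7 library tested fewer genes; for quantile normalization the cause was not tested. After quantile normalization the direction reversed for CecA2 (-0.06), imd (-0.42), PGRP-LC (-0.60), PGRP-LB (-0.21), GNBP3 (-0.67), AttB (-0.28) and Hayan (-0.33), and without control 2 for PGRP-LE (-0.06, in a range up to 0.11 when other libraries were left out). Of the 17 called immune genes, 9 kept their call in every alternative that tested them (AttC, Def, Dif, Dro, IM4, Mtk, PGRP-LD, PGRP-SB1 and nec), and 4 of these 9 (Dif, Dro, PGRP-LD and nec) were tested in all 13. PGRP-LD shares 3563 of its 3957 exon bases with Pmi on the same strand, so its value is uncertain although its call was kept. AttC, Def, IM4, Mtk and PGRP-SB1 were under 1 FPKM in both controls and entered the main test only through wh7. Of all such genes 87.0% were called there, so nothing is read from the kept calls of these genes. The labels do not say that equal replicate numbers pair libraries. With the replicate block there were 16 calls among immune genes, 37 among pathway list genes and 3624 over all genes. The deviations of control 1 and wh7 1 from their group means correlated at -0.165 across genes, and with the numbers crossed, a pairing added after seeing the data, these counts were 17, 34 and 2729. With no filter on low values, DptB (0.0370) and PGRP-SC2 (0.0257) passed the threshold. Low depth limits all peptides under 1 FPKM in the controls.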
